A study of Mus musculus with 4 samples.

Results

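The Toll-like receptors and LPS co-receptors examined here are 10 genes, namely Tlr1, Tlr2, Tlr4, Tlr6, Tlr7, Tlr8, Tlr9, Tlr13, Cd14 and Ly96. Their chromatin was followed through regions of accessible DNA, which are overlapping ATAC-seq peaks of the 4 libraries joined into one interval. A region was assigned to a gene when the strongest peak in it carried that gene's name, which is the gene of the nearest transcription start site (TSS). By this rule 72 of 60710 regions belonged to the 10 genes, and all 10 genes had at least 1 region.

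Toll-like receptors recognise conserved microbial molecules and signal through adaptor proteins to NF-kB, AP-1 and interferon regulatory factors. Macrophages display some of them at the cell surface, where they bind bacterial lipids and lipoproteins, and keep others in endosomes, where they bind nucleic acids. IL-4 signals through STAT6 and drives alternative macrophage polarization, a state in which part of the inflammatory gene program is damped.

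ATAC-seq, a method that tags accessible DNA with sequencing adapters through a transposase, was performed on bone marrow-derived macrophages (BMDMs) of wild-type C57BL/6 mice aged 8 to 12 weeks. The marrow cells were differentiated for 6 days with L929 supernatant, which supplies M-CSF, and no allele was altered in either group. The control group (n = 2 libraries) was left without IL-4 and the IL-4 group (n = 2 libraries) received IL-4 at 20 ng/ml for 1 h. The study describes the libraries of a group as biological replicates. The comparison asks whether the accessible regions around the receptor genes differ between these groups.

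The value used throughout is the peak score of the deposited peak lists, taken to be the −log10 q-value from peak calling, so that a higher score means a peak stands out more clearly from the other reads of that library. The score grows with sequencing depth, which is unknown because the files hold no read counts, and no interval for counting error can be given. The libraries held 39462 to 45250 peaks, and IL-4 replicate 2 had the fewest. Over the 25442 regions that all 4 libraries shared, the median score was 12.5 and 11.01 in the controls and 11.1 and 8.86 with IL-4, so the log2 scores of the IL-4 libraries lay lower by a median of 0.21 before any scaling (log2 difference −0.21). Of 8 macrophage marker genes, 6 had a promoter peak in all 4 libraries, whereas Csf1r and Itgam had none. No T cell, B cell or stromal marker of the 13 examined had a promoter peak, and among 5 neutrophil markers only S100a8 had one, in all 4 libraries.

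The sequences in the middle of the regions with the largest score differences are given first, because the values below refer to them. Each is a window of 300 bases centred on the region, on the plus strand of mm10. In the first 4 windows, capitals mark matches to the motifs TTCNNNNGAA (the spacing preferred by STAT6), TTCNNNGAA (the spacing of other STAT proteins), TGACTCA (AP-1), GAGGAAGT (PU.1), the NF-kB motif and GAAANNGAAA (an interferon response core), searched on both strands. In the last window, capitals mark the forward primer that the study designed for enhancer RNA downstream of Tlr2.
Tlr4 +24.3 kb, chr4:66851981-66852280: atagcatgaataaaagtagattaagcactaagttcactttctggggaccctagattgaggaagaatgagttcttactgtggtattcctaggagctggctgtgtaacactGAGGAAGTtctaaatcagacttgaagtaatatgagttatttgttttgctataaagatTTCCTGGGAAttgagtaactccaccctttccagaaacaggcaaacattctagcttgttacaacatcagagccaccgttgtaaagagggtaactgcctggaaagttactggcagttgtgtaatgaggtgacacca
Tlr4 −30.9 kb, chr4:66796796-66797095: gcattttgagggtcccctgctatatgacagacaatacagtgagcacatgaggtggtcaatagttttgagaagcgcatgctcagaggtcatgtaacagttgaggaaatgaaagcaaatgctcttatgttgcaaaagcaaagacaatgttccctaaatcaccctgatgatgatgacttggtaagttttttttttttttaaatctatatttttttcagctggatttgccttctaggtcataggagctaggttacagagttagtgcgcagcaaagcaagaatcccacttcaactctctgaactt
Ly96 +343 bp, chr1:16688650-16688949: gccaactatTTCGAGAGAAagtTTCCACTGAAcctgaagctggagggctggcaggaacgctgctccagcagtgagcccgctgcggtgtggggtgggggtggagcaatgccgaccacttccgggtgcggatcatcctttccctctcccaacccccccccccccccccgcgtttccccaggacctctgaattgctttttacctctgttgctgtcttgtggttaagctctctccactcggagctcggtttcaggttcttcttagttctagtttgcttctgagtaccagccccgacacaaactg
Tlr7 +1.81 kb, chrX:167328565-167328864: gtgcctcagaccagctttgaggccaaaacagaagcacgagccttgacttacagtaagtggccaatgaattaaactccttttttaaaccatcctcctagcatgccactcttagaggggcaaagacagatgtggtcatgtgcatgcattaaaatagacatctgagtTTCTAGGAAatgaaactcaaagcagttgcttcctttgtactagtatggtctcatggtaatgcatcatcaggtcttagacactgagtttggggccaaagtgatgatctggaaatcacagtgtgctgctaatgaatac
Tlr2 +29.5 kb, chr3:83812007-83812306: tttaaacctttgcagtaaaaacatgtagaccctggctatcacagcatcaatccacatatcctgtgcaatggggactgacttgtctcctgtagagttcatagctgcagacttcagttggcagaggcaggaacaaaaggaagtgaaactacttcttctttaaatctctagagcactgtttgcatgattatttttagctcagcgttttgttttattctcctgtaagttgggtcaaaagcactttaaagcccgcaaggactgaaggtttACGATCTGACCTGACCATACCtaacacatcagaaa

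The Tlr4 +24.3 kb window held 1 match to the STAT6 spacing, 21 bases from the window centre, and 1 match to the PU.1 motif, 37 bases to the other side of it. The Ly96 +343 bp window held 2 matches to the STAT6 spacing near its left edge, and the Tlr7 +1.81 kb window held 1 match to the other STAT spacing. The Tlr4 −30.9 kb and Tlr2 +29.5 kb windows held none of the 6 motifs. A match is a description of the letters, and a missing match says only that the letters are not in the window.

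First, the number and place of the regions were determined. Tlr4 had 19 regions, Tlr2 14, Tlr7 9, Tlr13 8, Ly96 7, Tlr8 5, Tlr1, Tlr9 and Cd14 3 each and Tlr6 1. Of the 72 regions, 42 (58.3%) were intergenic, 20 (27.8%) intronic and 8 (11.1%) at an annotated promoter, while 1 covered an exon and 1 a gene end. Over all 60710 regions the shares were 35.8% intergenic, 40.2% intronic and 18.8% promoter, so the receptor genes had a larger share of their regions outside genes. The farthest assigned regions lay at Tlr4 +620 kb and Tlr4 +650 kb, in a stretch without a nearer annotated start. The median length was 209 bp, as over all regions.

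Of the 72 regions, 31 had a peak in all 4 libraries (25442 of the 60710 regions did) and 20 had one in a single library. The remaining 21 were 7 regions with peaks in 3 libraries, 7 with a peak in 1 library of each group and 7 found in both libraries of one group only.

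**Figure D1:**
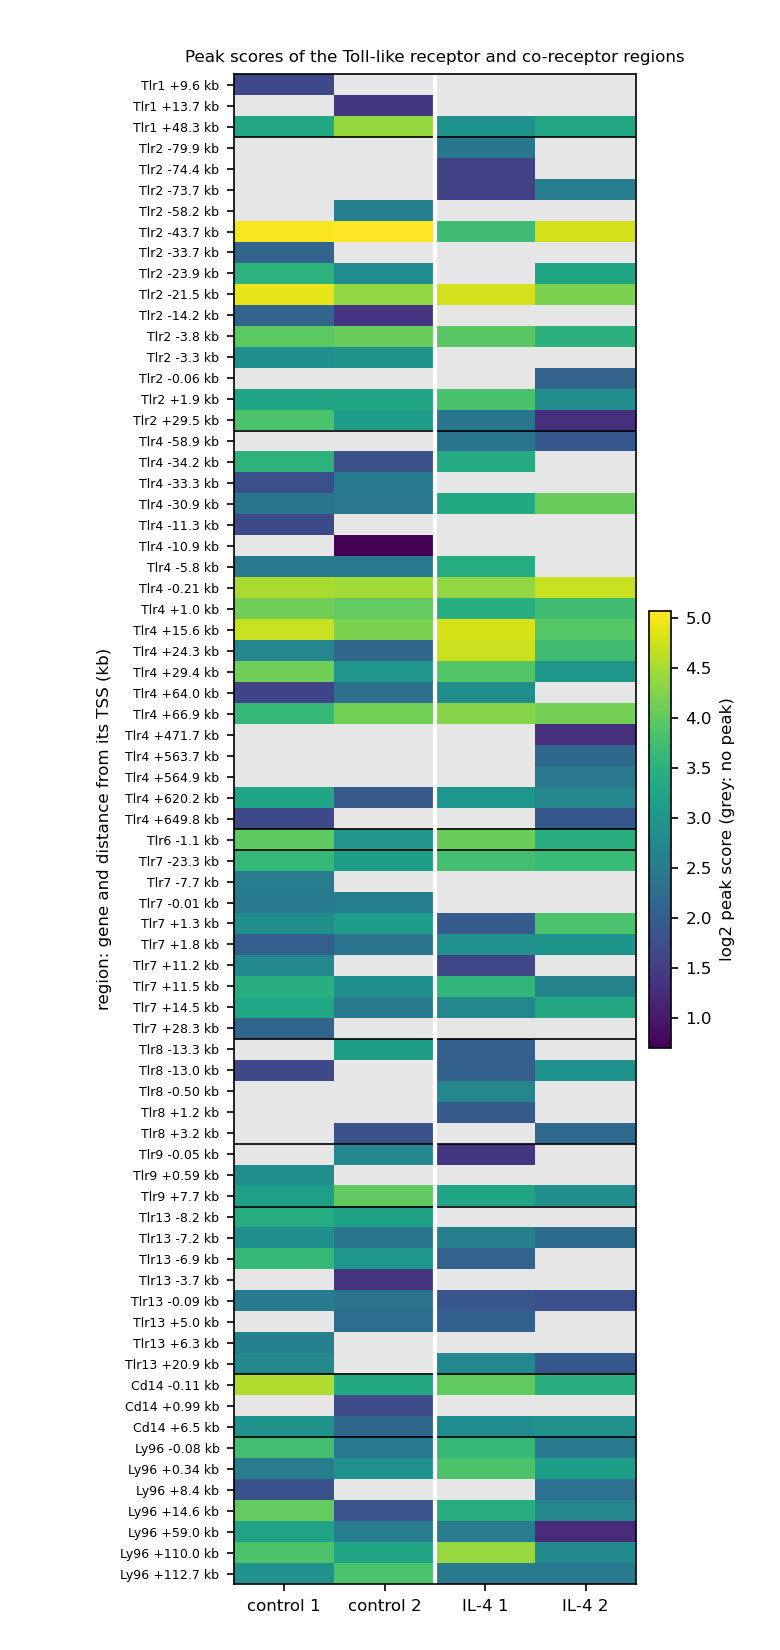
Peak scores (log2, colour) of the 72 regions in the 4 libraries, 1 row per region, grouped by gene and ordered by distance from the TSS, with grey where a library had no peak. The strongest rows, at Tlr2 −43.7 kb, Tlr2 −21.5 kb, the Tlr4 promoter and Tlr4 +15.6 kb, were filled in all 4 libraries, while 20 rows were filled in 1 library only.

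The control libraries held 55 and 50 peaks at these genes and the IL-4 libraries 48 and 44. The IL-4 libraries held fewer than either control, with a difference of −6.5 peaks (52.5 ± 3.54 against 46 ± 2.83, SD, n = 2 each, p = 0.33 by a two-sided exact permutation test, the smallest p that 2 against 2 libraries allow). As a share of all peaks in a library, the receptor peaks made up 0.122% and 0.119% in the controls and 0.114% and 0.112% with IL-4.

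Next, the regions at the start sites were compared. Tlr4, the signalling receptor for LPS, had the highest promoter score of the 10 genes in 3 of the 4 libraries, with scores of 22.9 and 22.1 in the controls and 20.6 and 25.9 with IL-4. Cd14, which hands LPS to the receptor complex, scored 23.5 and 10.3 in the controls and 15.99 and 11.03 with IL-4 at its promoter. Ly96, which encodes MD-2, the LPS-binding partner of Tlr4, scored 13.5 and 5.62 against 12.4 and 5.62. At all 3 LPS receptor genes the control and IL-4 values overlapped, and the log2 changes were 0.20 (SE 0.270), −0.01 (SE 0.369) and 0.17 (SE 0.494).

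Among the receptors for lipoproteins, the region nearest to the TSS of Tlr6, the partner of Tlr2 for diacylated lipopeptides, scored 15.9 and 7.87 in the controls and 17.1 and 11.03 with IL-4. Its edge lay 809 bp from the TSS. The Tlr2 promoter had a peak in IL-4 replicate 2 alone, with a score of 4.27, and Tlr1, the partner of Tlr2 for triacylated lipopeptides, had no region within 1000 bp of a start site, its nearest lying 9471 bp away. The endosomal receptors had promoter peaks of low score. Tlr13, a receptor for bacterial ribosomal RNA, scored 5.71 and 5.09 against 3.67 and 3.43 with IL-4, and its groups did not overlap (log2 change −0.45, SE 0.546). Tlr7, a receptor for single-stranded RNA, had a promoter peak of 5.6 and 6 in the controls and none in either IL-4 library. Tlr9, which recognises unmethylated CpG DNA, had 1 peak in control replicate 2 (6.6) and 1 in IL-4 replicate 1 (2.64). Control replicate 1 had a Tlr9 peak nearby, at +593 bp in intron 1 (7.15), and merging peaks within 500 bp joined it to the promoter region. Tlr8, related to Tlr7, had 1 promoter peak, in IL-4 replicate 1 (6.5).

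**Figure D2:**
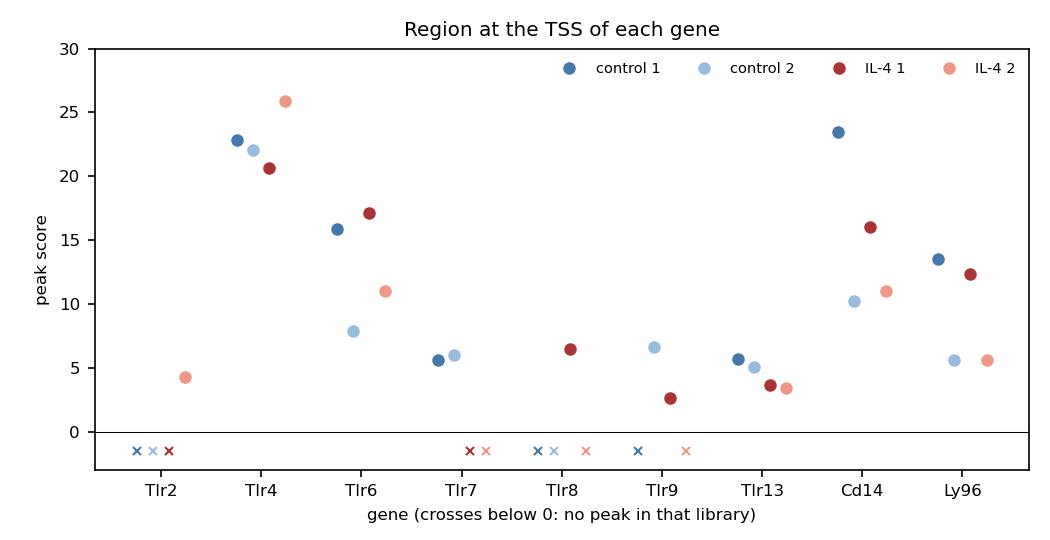
Peak score of the region covering or nearest to the TSS of each gene (within 1000 bp), 1 point per library. Crosses below 0 mark a library without a peak in that region. Tlr1 had no such region. Tlr4 sat between 20.6 and 25.9 in all 4 libraries, whereas the endosomal receptors Tlr7, Tlr8, Tlr9 and Tlr13 stayed at or under 6.6.

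Scores were then compared between the groups at the 31 regions that all 4 libraries shared, by limma on log2 scores after quantile normalisation, fitted over all 25442 such regions, with Benjamini-Hochberg adjusted p-values called under 0.05. No region at the receptor genes passed in either direction, where the background over all regions was 0.0157% called higher with IL-4 (4 regions) and 0.00786% called lower (2 regions). At an unadjusted p under 0.05 there were 5 of the 31 (16.1%), against 8.28% of all regions, and the 5 were Tlr4 +24.3 kb, Tlr4 −30.9 kb, Tlr2 +29.5 kb, Tlr2 −43.7 kb and Ly96 +343 bp. The normalised scores of the groups did not overlap at 7 regions that were higher with IL-4 (22.6%), near the background of 19.2%, and at 3 that were lower (9.68%), against a background of 18.6%.

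The median log2 change over the 31 regions was 0.17, with 21 regions above 0 and 10 below, while the median over all regions was −0.00065. The changes spread from −1.40 to 2.0 with an SD of 0.667, against 0.504 over all regions. The sign of the median depended on the scaling, because without any scaling it was −0.066 with 14 regions above 0 and 17 below, while all regions then stood at −0.21. Relative to all regions the median of the receptor genes was thus the higher one under both.

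**Figure D3:**
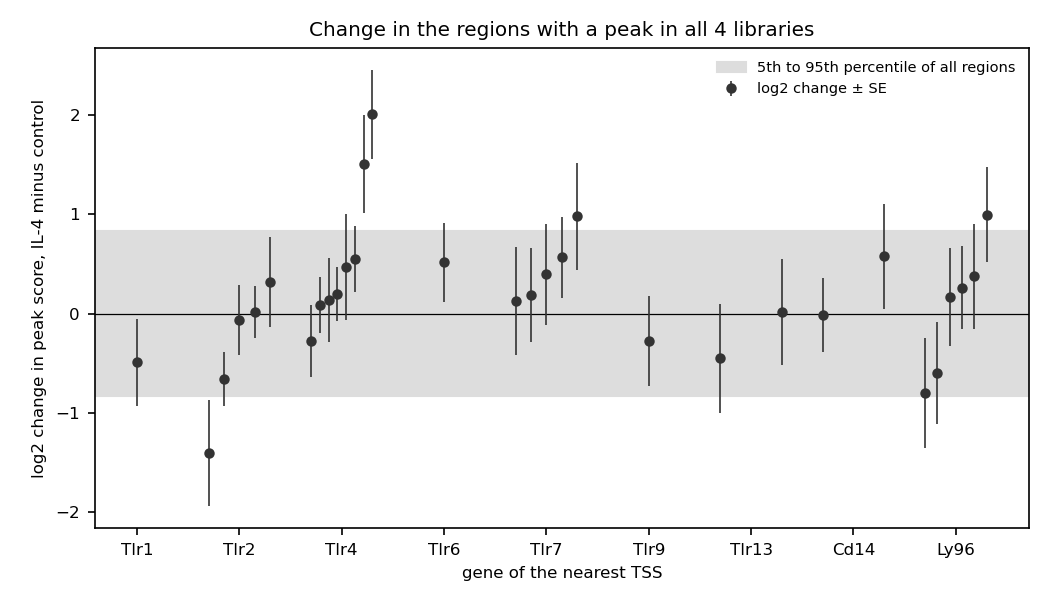
Log2 change in peak score (IL-4 minus control, quantile-normalised) of the 31 regions shared by the 4 libraries, by gene, with SE bars from the limma fit and the 5th to 95th percentile of all 25442 regions in grey. Points of Tlr4 reach 2.0, those of Tlr2 reach down to −1.40, and Tlr8 has no region of this kind.

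The largest differences with IL-4 lay on either side of Tlr4. The Tlr4 +24.3 kb region (chr4:66851979-66852321, intergenic, downstream of the gene end) scored 6.5 and 4.53 in the controls and 26.3 and 13.3 with IL-4. Both IL-4 libraries were above both controls (log2 change 2.0, SE 0.449, adjusted p = 0.0945 by limma). It was the region with the lowest adjusted p among the 31 and it held the match to the STAT6 spacing printed above. The call depended on the processing: the adjusted p by limma ranged from 0.0299 to 0.178 over the alternatives that kept all 4 libraries. This range leaves out the fit without the variance trend, which called no receptor region. The value was 0.0299 when regions with a peak in 3 libraries were added, with a missing score set to the lowest score of all libraries. Leaving out IL-4 replicate 1 or 2 gave log2 changes of 1.67 and 2.32.

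The Tlr4 −30.9 kb region (chr4:66796827-66797035, intergenic) scored 5.26 and 5.46 in the controls and 10.3 and 16.8 with IL-4. The 2 controls were nearly equal and both IL-4 libraries lay above them (log2 change 1.5, SE 0.494, adjusted p = 0.329 by limma). The other 6 Tlr4 regions with a peak in all 4 libraries differed less. At Tlr4 +66.9 kb the scores were 12.3 and 17.6 in the controls against 19.5 and 17.8 with IL-4 (log2 change 0.55, SE 0.334), at the gene end (Tlr4 +15.6 kb) 26.0 and 18.5 against 28.0 and 15.1, and in intron 1 (Tlr4 +1.03 kb) 17.5 and 16.2 against 10.9 and 13.3. The last was the only one of the 8 Tlr4 regions with a log2 change below 0 (−0.27, SE 0.363), although without scaling 3 of the 8 were below 0. Its groups were apart in the raw scores but overlapped after normalisation. The median over the 8 was 0.33.

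**Figure D4:**
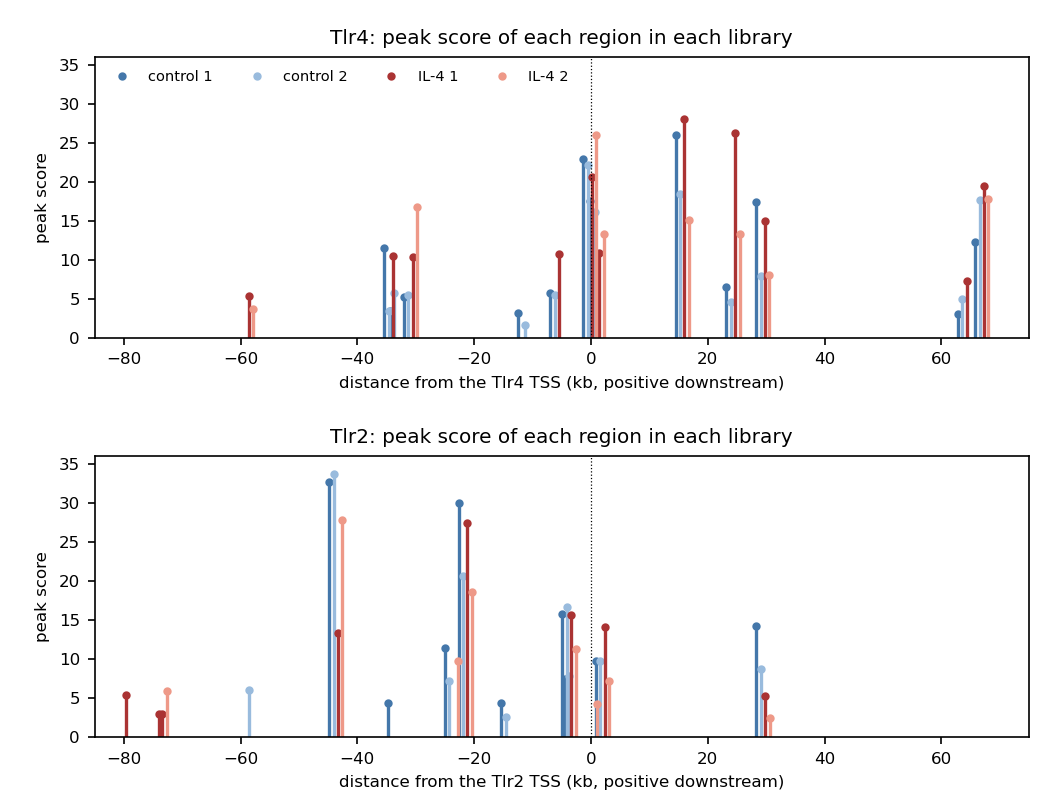
Peak score of each Tlr4 and Tlr2 region within 85 kb of the TSS, 1 stem per library, with the 4 stems of a region shifted slightly sideways to keep them apart and no stem where a library had no peak. At Tlr4 +24.3 kb and −30.9 kb the IL-4 stems stand above the control stems, at Tlr2 +29.5 kb they stand below them, and at the Tlr4 promoter all 4 have like heights.

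Tlr2, the receptor for bacterial lipoproteins, had the region with the lowest log2 change. The Tlr2 +29.5 kb region (chr3:83812072-83812241, intergenic) scored 14.2 and 8.78 in the controls and 5.28 and 2.49 with IL-4. Both IL-4 libraries lay under both controls (log2 change −1.40, SE 0.533, adjusted p = 0.428 by limma). The Tlr2 −43.7 kb region, the strongest of the 72 in the control libraries, scored 32.7 and 33.6 in the controls and 13.4 and 27.8 with IL-4. Here the raw difference came mostly from IL-4 replicate 1, and after normalisation the groups overlapped. The log2 change was −0.66 (SE 0.274, adjusted p = 0.502 by limma). It became −0.01 without IL-4 replicate 1 and −1.27 without IL-4 replicate 2.

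The study designed primers for enhancer RNA at 3 sites of this set, and exact matches of both primers placed each once in the genome. The amplicon downstream of Tlr2 (chr3:83812272-83812351, 29.3 kb from the TSS) lay 31 bp outside the Tlr2 +29.5 kb region. The amplicon upstream of Tlr2 (chr3:83863328-83863399) overlapped the Tlr2 −21.5 kb region, which scored 30.03 and 20.6 in the controls and 27.4 and 18.5 with IL-4, with overlapping groups and a log2 change of 0.02 (SE 0.260). The sign of that change was not stable, as it became −0.14 without scaling. The 2 Tlr2 sites thus had different values in the same libraries, and the difference between them was not tested. The amplicon 26.4 kb downstream of Cd14 overlapped a region that carried the name of E230025N22Rik and so was not counted among the 72. It scored 23.9 and 12.8 in the controls and 13.3 and 7.89 with IL-4, and the groups overlapped (log2 change −0.55, SE 0.379, adjusted p = 0.755 by limma). The change was −0.17 without control replicate 1, −0.94 without control replicate 2 and −0.34 without IL-4 replicate 2.

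Of the remaining Tlr2 regions in all 4 libraries, Tlr2 −3.76 kb scored 15.7 and 16.7 in the controls and 15.6 and 11.3 with IL-4, and Tlr2 +1.95 kb in intron 2 scored 9.71 and 9.69 against 14.1 and 7.22. Neither separated the groups. Over its 5 regions Tlr2 had a median of −0.06, with 2 above 0 and 3 below. Tlr1 had 1 region in all 4 libraries, at +48.3 kb, with scores of 9.97 and 20.8 in the controls against 7.73 and 9.87 with IL-4 (log2 change −0.49, SE 0.438). After normalisation its groups overlapped. The change was 0.14 without control replicate 2, −1.14 without control replicate 1, −0.14 without IL-4 replicate 1 and −0.83 without IL-4 replicate 2, and in the RefSeq annotation used here the nearest start to it is that of Gm21011. Tlr6 had its single region near the TSS, with a log2 change of 0.52 (SE 0.400) and overlapping groups.

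Among the LPS co-receptors, the Ly96 +343 bp region in intron 1 (chr1:16688618-16689052) scored 5.89 and 7.62 in the controls and 14.5 and 8.86 with IL-4. Both IL-4 libraries were above both controls (log2 change 0.99, SE 0.479, adjusted p = 0.586 by limma). The Ly96 promoter region lies close beside it, and joining peaks within 500 bp merged both into one region with a log2 change of 0.39. Farther downstream, Ly96 +59.0 kb scored 9.47 and 5.9 against 5.89 and 2.37 (log2 change −0.80, SE 0.553), and Ly96 +113 kb scored 7.51 and 14.3 against 5.69 and 5.65 (log2 change −0.60, SE 0.513). At both the IL-4 libraries lay under both controls before scaling, although 5.89 and 5.9 nearly touched at Ly96 +59.0 kb, and after scaling the groups overlapped at Ly96 +113 kb, where the change was −0.05 without control replicate 2 and −1.20 without control replicate 1. At Ly96 +59.0 kb the change was −0.245 without IL-4 replicate 2 and −1.34 without IL-4 replicate 1.

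Cd14 had 2 regions in all 4 libraries, its promoter and one at +6.51 kb. The latter scored 7.64 and 4.51 in the controls and 7.13 and 7.56 with IL-4, so the raw values overlapped, whereas the normalised ones did not (log2 change 0.58, SE 0.527, adjusted p = 0.831 by limma). Without control replicate 2 the change was 0.29, and without scaling it was 0.32.

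The endosomal receptors differed among themselves in how often they had peaks. Tlr7 had 5 of 9 regions in all 4 libraries, Tlr13 2 of 8, Tlr9 1 of 3 and Tlr8 0 of 5. The Tlr8 count depended on the merging. Joining peaks within 500 bp merged Tlr8 −13.3 kb with its neighbour at −13.0 kb. The joined region had a peak in all 4 libraries (3.17 and 8.78 in the controls, 4.11 and 7.7 with IL-4). All 5 of the Tlr7 regions had log2 changes above 0, with a median of 0.39, although without scaling 3 were above 0 and 2 below. Tlr7 +1.81 kb in intron 2 scored 4.05 and 5.24 in the controls and 7.53 and 7.78 with IL-4 (log2 change 0.98, SE 0.538, adjusted p = 0.647 by limma), with no overlap. Merging peaks within 500 bp put that change at 0.61. Tlr7 −23.3 kb, which lies in intron 4 of Prps2, scored 12.2 and 8.78 against 13.7 and 12.6 (log2 change 0.56, SE 0.408), and without scaling the change was 0.34.

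Tlr9 +7.68 kb scored 9.05 and 16 in the controls against 9.67 and 7.17 with IL-4, with overlap. The Tlr13 region at −7.20 kb scored 7.46 and 5.29 against 6.06 and 4.74, a log2 change of 0.01, and also overlapped. At Tlr8 no library had more than 4 of the 5 regions, and the highest score was 8.78, in control replicate 2 at −13.3 kb.

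Regions found in only one group were counted next. Peaks in both controls and in neither IL-4 library were found at 5 of the 72 regions (6.94%), against 4.33% of all regions, and peaks in both IL-4 libraries and neither control at 2 (2.78%), against 2.53%. The control-only regions were Tlr13 −8.22 kb (10.6 and 9.12), Tlr2 −3.34 kb (7.42 and 7.85), the Tlr7 promoter (5.6 and 6), Tlr4 −33.3 kb (3.43 and 5.75) and Tlr2 −14.2 kb (4.38 and 2.56). Tlr13 −8.22 kb was the strongest of them. Tlr2 −3.34 kb lay beside Tlr2 −3.76 kb and joined it when peaks within 500 bp were merged. The IL-4-only regions were Tlr4 −58.9 kb (5.34 and 3.73) and Tlr2 −73.7 kb (2.95 and 5.95), the latter in intron 26 of Tmem131l. All 7 had scores below the median of their library over regions shared by all 4 libraries. The IL-4 libraries held fewer peaks in total than control replicate 1, and the part of that difference in these counts was not tested.

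The motifs were then counted in the 72 windows beside the 60710 windows of the same length. AP-1 was found in 23 of the 72 (31.9%), against 18.97% of all windows, and the other STAT spacing in 12 (16.7%), against 8.93%. The STAT6 spacing was found in 8 (11.1%), against 9.05%. PU.1 was found in 5 (6.94% against 10.4%), NF-kB in 5 (6.94% against 7.40%) and the interferon response core in 1 (1.39% against 4.61%). No test was made of these shares, and overlapping matches in a window counted as 1 window. Of the 31 regions shared by all 4 libraries, 10 held AP-1, 4 the STAT6 spacing and 3 the other STAT spacing. A window can reach beyond a short region, so some matches lie outside the region itself.

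The STAT6 spacing was also counted by class of score difference over the 31 shared regions, without a test. Of the 7 regions with higher, non-overlapping normalised scores with IL-4, 3 held it, namely Tlr4 +24.3 kb, Ly96 +343 bp and Cd14 +6.51 kb. The raw scores of the Cd14 region overlapped. Of the 21 with overlapping scores, 1 did (Tlr6 −1.11 kb), and of the 3 with lower scores none did. Over all regions the shares in these classes were 13.9%, 6.85% and 4.55%. Neither of the 2 IL-4-only regions and none of the 5 control-only regions held it, where 34.3% of all IL-4-only and 4.68% of all control-only regions did. AP-1 was found in 9 of the 21 regions with overlapping scores, in 1 of the 7 and in none of the 3, where 20.5%, 16.4% and 26.9% of all regions of these classes held it.

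The rest of the Toll-like receptor pathway was examined through 32 other genes chosen for their role, of which 29 had 207 regions, while Tlr12, Lbp and Hsp90b1 had none. Of the 86 that all 4 libraries shared, 40 had log2 changes above 0 and 46 below, with a median of −0.04, and limma called none in either direction, with 3 (3.49%) at an unadjusted p under 0.05, under the 8.28% of all regions. Medians by role were −0.19 for the other Toll-like receptors (8 regions), 0.01 for LPS handling and the Cd180 pair (21), −0.27 for trafficking and folding (3), −0.03 for the adaptors (7), −0.13 for the kinases and ubiquitin ligases (37) and 0.16 for the inhibitors of the pathway (10).

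The lowest change of this list was in intron 1 of Traf3, a ubiquitin ligase of the interferon branch, at +20.7 kb, with scores of 18.1 and 22.3 in the controls and 3.8 and 7.78 with IL-4 (log2 change −1.67, SE 0.454, adjusted p = 0.218 by limma). The highest was at Tnfaip3 +15.5 kb, near the gene of the deubiquitinase A20 that restrains NF-kB, with 4.97 and 6.74 against 7.13 and 9.34 (log2 change 0.74, SE 0.525, adjusted p = 0.762 by limma). Both regions, chosen as the extremes of the list, separated the groups after normalisation. Of all shared regions, 19.2% did so with higher and 18.6% with lower scores with IL-4. The pathway as a whole had a median near that of all regions.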

How the data were processed

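Per the labels and the study's methods, the authors aligned the ATAC-seq reads to mm10 with BWA 0.7.10, called peaks in each library on its own with MACS2 2.0.10, removed blacklisted regions and annotated the peaks with HOMER 4.2. SAMtools 0.1.19 is also named in the submitters' processing notes. How reads were shifted for the Tn5 cut and how duplicates were handled is not given in the sources used here. No source states the unit of the deposited score. The authors deposited it from peak calling with MACS2, and it was taken to be −log10 q, since the lowest score was 1.3 or 1.32 in every library, although the methods name a cut-off of 0.01 and 133 to 603 peaks per library scored under 2.

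Peaks on the autosomes, X and Y were merged at an overlap of 1 bp, and a region took the highest score of each library. Log2 scores of regions in all 4 libraries were quantile-normalised and fitted with limma 3.58.1 in R 4.3.3 (eBayes with a trend). These p-values rest on 2 libraries per group. RefSeq on GRCm38.p6, the assembly of mm10, gave introns and start sites: every peak fitted within its chromosome, and 71 of the 72 regions had the same nearest gene there, with TSS distances up to 541 bp apart. The scripts were tested on simulated data. The changes put into the simulated scores were larger than any found at the receptor genes. How well the fit recovers smaller changes was not tested. Motifs were searched by exact match.

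All 10 genes were named, with their start-site regions, the 6 highest and 6 lowest log2 changes, the regions of one group only and the primer sites. Any other region, and any pathway region beyond the extremes, was chosen after its values were seen. The members, the pathway list, the markers and the motifs were chosen with earlier results of these data known. One further marker list is not reported here.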

Additional observations from a re-analysis of the deposited data

How the results depend on the processing

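Over 10 alternatives for each of 14 named regions, 134 of 140 values kept their direction and their side of the threshold. The fit without the variance trend is not among these values, and it called no receptor region in either direction. Apart from Tlr4 +24.3 kb, every named region had an adjusted p of at least 0.329 by limma in the main fit, far from the threshold. The Tlr4 +24.3 kb region passed with the replicate number as a block (adjusted p = 0.0306 by limma) and when regions in at least 3 libraries were fitted (0.0299). Under each, 1 receptor region was called higher. The Tlr2 −21.5 kb change reversed without scaling (−0.143), without control replicate 2 (−0.192) and without IL-4 replicate 1 (−0.117), with a range of −0.192 to 0.233 over the libraries left out. That at Tlr1 +48.3 kb reversed without control replicate 2 (0.136), with a range of −1.14 to 0.136. Over all regions, the 4 called higher became 11 with the replicate block, 0 without the variance trend, 0 without scaling and 28 with regions in at least 3 libraries, and the 2 called lower became 0 without the trend and 8 with regions in at least 3 libraries. Leaving out 1 library at a time gave 0 to 14 called higher and 0 called lower. The median over the receptor regions was −0.066 without scaling, an alternative chosen after seeing the data, and −0.00045 to 0.389 when a library was left out. The cause of these changes was not tested.

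Leaving out a library gave 2 to 6 IL-4-only and 6 to 12 control-only receptor regions, as 1 library then stood for its group, and differences of −9 to −4 receptor peaks per library. The lone library was assumed to vary like the other group. Both groups carry replicates 1 and 2 in the labels, which do not say that a number marks a shared animal or day. The differences between replicates 1 and 2 correlated at r = 0.00677 between the groups over 25442 regions. A correlation of peak scores cannot show whether a number marks a shared animal or day, so the pairing stays unknown. The unknown depth limits what weak regions can show.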
